A study of Mus musculus with 6 samples.

Results

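Collagen is modified by endoplasmic reticulum enzymes and chaperones before it is secreted, and its propeptides are cut off by proteinases. Genes of these steps, 10 in all, were examined in bone marrow mesenchymal stem cells (BMMSCs) treated with siRNA against Tet1 and Tet2. The genes were taken by symbol from the 36870 distinct symbols of the deposited expression table, and all 10 were found. They are the prolyl 4-hydroxylase alpha subunits P4ha1, P4ha2 and P4ha3, the lysyl hydroxylases Plod1, Plod2 and Plod3, the prolyl 3-hydroxylase P3h1, the chaperones Fkbp10 and Serpinh1, and the procollagen proteinase Bmp1. RNA was sequenced from BMMSCs of C57BL/6 mice, the adherent cells grown out of flushed marrow, in 3 Control libraries treated with a non-targeting siRNA and 3 siTet1/Tet2 libraries in which Tet1 and Tet2 were both targeted by siRNA. Neither group carries a gene deletion, and the culture was selected by adherence alone. The labels give passage p2 for both groups, whereas the methods of the study give passage 1 and call the control treatment vehicle in the sequencing section. No source used here ties a library to an animal or a culture, so the p-values measure the spread between these libraries, which may be technical. The age of the mice was not given for these libraries.

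A procollagen chain is hydroxylated on proline and lysine while it enters the endoplasmic reticulum. Prolyl 4-hydroxylation makes the triple helix stable at body temperature, lysyl hydroxylation prepares the sites of sugar addition and cross-linking, and chaperones hold the folding trimer until it leaves for the Golgi. Outside the cell the propeptides are cut off so that fibrils can form. Defects in several of these genes cause osteogenesis imperfecta, the brittle bone disease. The prolyl and lysyl hydroxylases need iron, alpha-ketoglutarate and oxygen, a requirement they share with the Tet enzymes.

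All 10 genes were lower after Tet1/Tet2 siRNA treatment, by factors that ran from 1.19 for Plod1 to 5.13 for Fkbp10. Fkbp10, Bmp1 and Serpinh1 fell most, P4ha3, Plod2, P3h1 and P4ha2 fell by more than 2-fold, and P4ha1, Plod3 and Plod1 fell less. Each passed limma at a Benjamini-Hochberg adjusted p of 0.05 over the 13266 genes tested, so 10 of 10 were called lower and 0 higher. Of all genes tested, 29.8% were lower by the same rule and 14.7% were higher, and the median log2 fold change, on the log2(RPKM + 1) scale used throughout, was -0.09 against -1.45 for the 10 genes. After quantile normalization the median of all genes was 0.06, with 2627 lower and 3607 higher in place of 3952 and 1953. Every siTet1/Tet2 library lay below every Control library in all 10 genes, an arrangement found in 35.9% of the genes tested, while the opposite one, found in 19.8%, occurred in 0 of the 10. By the thresholds of the study, unadjusted p of 0.05 together with a change of more than 2-fold, 7 of the 10 genes were lower and 0 higher, against 5.63% and 0.950% of the genes tested. P4ha1, Plod1 and Plod3 were the 3 that did not pass. The pseudocount of 1 RPKM shrinks the change of low genes, and when the ratio of the group mean RPKM had to exceed 2 at an adjusted p of 0.05, the same number, 7 of 10, were lower against 11.5% of the genes tested.

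**Figure D1:**
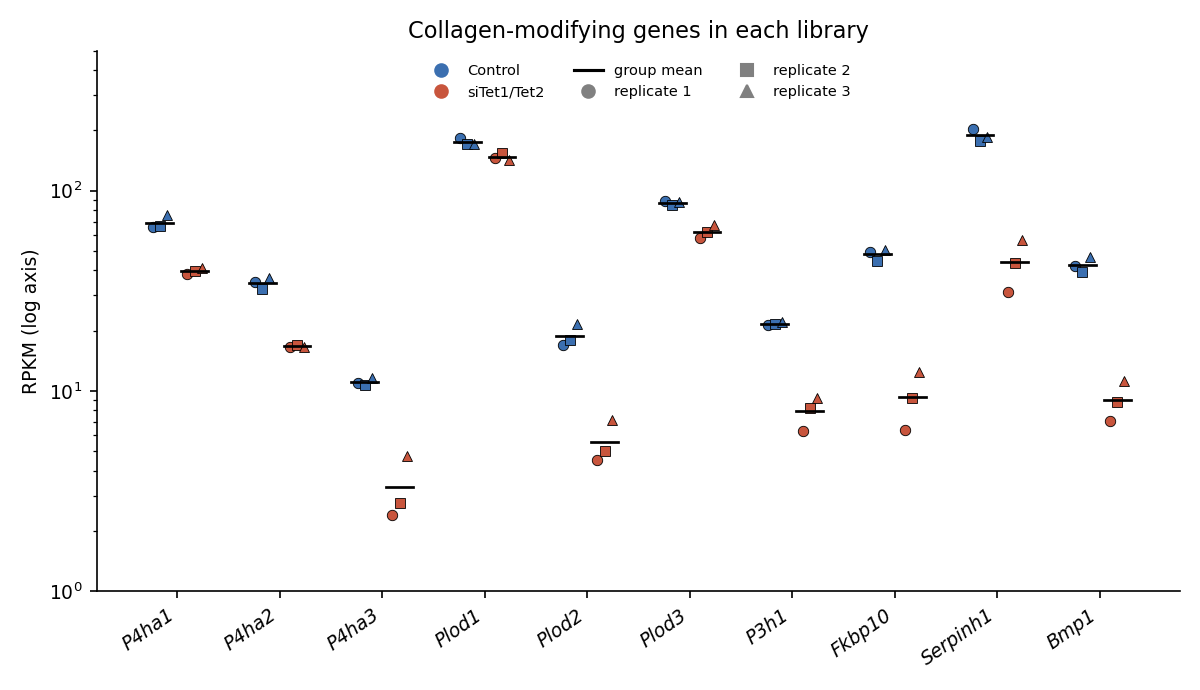
RPKM of the 10 collagen-modifying genes in each library, on a log axis, with Control in blue, siTet1/Tet2 in red, 1 symbol per replicate number and a line at the group mean. All 3 siTet1/Tet2 values lie below all 3 Control values in each gene, and the gap is narrowest in Plod1, at 142 to 154 against 170 to 184 RPKM.

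The values are RPKM, reads scaled to the length of the gene and to the total of mapped reads, so levels of different genes can be set side by side. Read totals, estimated from the steps between low RPKM values, were between 32400000 and 38700000 per library, and even the lowest value among the 10 genes, P4ha3 in siTet1/Tet2 replicate 1, stood for about 223 reads by that estimate. The targeted gene Tet2 was at 2.57, 4.08 and 3.71 RPKM in Control and at 0.358, 0.238 and 0.202 RPKM in siTet1/Tet2 libraries (limma adjusted p = 2.88e-05). Tet1 was at 0.032, 0.098 and 0.05 RPKM in Control and at 0.001, 0.01 and 0.001 RPKM in siTet1/Tet2 libraries. All of these are near the lowest listed value of 0.001 RPKM, and Tet1 was not tested. Tet3 overlapped between the groups (log2 fold change 0.12, limma adjusted p = 0.508). Markers of stromal cells and of macrophages were both present. Of 16 stromal markers, 11 were lower in all siTet1/Tet2 than in all Control libraries, against 35.9% of the genes tested. Lepr, among the 11, was too low to be tested, and of the 13 tested 10 were called lower and 1 higher. The summed level of the 16 went from between 391 and 448 RPKM to between 109 and 142 RPKM. Ly6a was the largest part of the Control sums, at 133 to 168 RPKM. Vcam1 was the largest part of the siTet1/Tet2 sums, at 53.9 to 57.3 RPKM. Thy1, the gene of CD90, Lepr and Lum were at or below 0.146 RPKM in every library, and Vcam1 rose. The 12 macrophage markers summed to between 8033 and 10650 RPKM in Control and between 15630 and 18480 RPKM in siTet1/Tet2 libraries. Lyz2 was the largest single part of this sum in every library, but it exceeded the other 11 markers together only in siTet1/Tet2 libraries. Those 11 summed to between 4485 and 5642 RPKM in Control and between 5752 and 5993 RPKM in siTet1/Tet2 libraries. Of the 12, 5 were called higher, Lyz2 among them at 3547 to 5013 and 9842 to 12728 RPKM, and 2 lower, while Ptprc, the gene of CD45, was at 47.4 to 56.0 and 47.2 to 59.3 RPKM. Marker lists of lymphoid and erythroid cells reached at most 0.161 RPKM in any gene, neutrophil markers at most 1.64, endothelial markers at most 1.76 and haematopoietic progenitor markers at most 1.48 RPKM. The adipocyte markers Adipoq and Plin1 rose, and their list of 3 genes summed to between 9.70 and 14.6 RPKM against between 5.27 and 6.74 RPKM in Control. The stromal and macrophage sums differed between the same groups that are compared throughout, although single markers did not all change alike. Their part in the changes was not tested. In such bulk libraries, fewer cells of a type and less RNA per cell cannot be told apart.

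Because the Tet enzymes act on methylated cytosine next to guanine, the promoters of the genes were read from RefSeq on GRCm38.p6. The table of promoters used here matched 7 of the 10 genes, with 8 promoters in all. Fkbp10, Bmp1 and Plod2 were not matched. In windows from 250 bases before to 50 bases after the start site, these promoters held 10 to 32 CG dinucleotides, and all 8 were above the median of 7 CG among the 32851 promoters of the table. P3h1 entered with both of its promoters, at 18 and 10 CG. The 32851 promoters were not limited to genes expressed in these libraries, and no comparison with expressed genes alone was made. The GC box GGGCGG, read on both strands, was present in 7 of the 8, against 35.7% of all promoters, the hypoxia element core ACGTG in 5 against 19.6%, and CCAAT in 3 against 37.4%. A GC box also holds CG, and so does ACGTG, so these counts are not separate from the first. Shown here are the 250 bases before the start of the genes with the largest and the smallest decrease among those with an entry, Serpinh1 at chr7:99353240-99353489 and Plod1 at chr4:147936777-147937026, both on the minus strand of GRCm38.p6, 5′ to 3′, with each CG in capitals.

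Serpinh1: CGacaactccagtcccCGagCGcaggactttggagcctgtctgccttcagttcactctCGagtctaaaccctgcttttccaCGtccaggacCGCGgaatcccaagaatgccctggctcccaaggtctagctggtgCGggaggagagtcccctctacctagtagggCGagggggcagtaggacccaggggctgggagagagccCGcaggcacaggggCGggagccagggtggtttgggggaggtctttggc

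Plod1: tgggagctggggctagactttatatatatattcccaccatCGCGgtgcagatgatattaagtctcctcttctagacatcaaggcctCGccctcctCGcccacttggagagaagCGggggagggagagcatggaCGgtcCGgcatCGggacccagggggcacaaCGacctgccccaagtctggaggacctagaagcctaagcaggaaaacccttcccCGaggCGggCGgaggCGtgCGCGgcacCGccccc

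The upstream stretch of Serpinh1 holds 11 CG and that of Plod1 16 CG. In the full windows the number of CG did not follow the size of the decrease in one direction, since P4ha3, which fell 3.37-fold, held 30 CG, Plod1 25, Plod3 19 and Serpinh1 16. Methylation was not measured in these libraries, and the counts describe the reference sequence only.

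The prolyl 4-hydroxylase alpha subunits carry the catalytic site of the enzyme that hydroxylates proline in the collagen repeat, and each pairs with the common beta subunit P4hb, which is also protein disulphide isomerase. P4ha1, the most abundant of them, on chromosome 10 of GRCm38 from 59323296 to 59373304, was at 65.6, 66.7 and 75.2 RPKM in Control and at 38.5, 39.7 and 41.1 RPKM in siTet1/Tet2 libraries. The 2 groups stood well apart, since the lowest Control value exceeded the highest siTet1/Tet2 value by more than the spread within either group. The means were 69.2 ± 5.29 and 39.8 ± 1.32 RPKM (SD, n = 3), and the log2 fold change was -0.78 ± 0.07 (SE, limma adjusted p = 6.53e-05). P4ha2, on chromosome 11 from 54100095 to 54131665, was at 35.1, 32.2 and 36.6 RPKM in Control and at 16.6, 16.9 and 16.5 RPKM in siTet1/Tet2 libraries. Its siTet1/Tet2 libraries were the most alike of any of the 10 genes, at 48.0%, 48.8% and 47.6% of the Control mean. Its log2 fold change was -1.01 ± 0.07 (SE, limma adjusted p = 1.70e-05). P4ha3, the least abundant, on chromosome 7 from 100285520 to 100319699, was at 11.0, 10.7 and 11.7 RPKM in Control and at 2.40, 2.76 and 4.72 RPKM in siTet1/Tet2 libraries. Replicate 3 was the highest of the siTet1/Tet2 libraries by a wide margin, and still under every Control library. The log2 fold change of P4ha3 was -1.53 ± 0.18 (SE, limma adjusted p = 0.000254), a 3.37-fold difference between the group means.

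The make-up of the alpha subunits shifted with these unequal decreases. P4ha1 took 58.7%, 60.9% and 60.9% of the summed RPKM of the 3 subunits in Control libraries and 66.9%, 66.9% and 66.0% in siTet1/Tet2 libraries. The share of P4ha3 was 9.84%, 9.76% and 9.44% in Control and 4.17%, 4.65% and 7.58% in siTet1/Tet2 libraries. Thus P4ha1 held a larger share and P4ha3 a smaller share in every siTet1/Tet2 library, and the share of P4ha2 was slightly smaller, at 26.5% to 28.9% against 29.4% to 31.5%. These shares are unaffected by a single scaling factor per library, and the difference between the groups was not tested. In the shares and ratios given here and below, a change within cells and a change in the mix of cells cannot be told apart. P4hb fell much less than its partners, from 381.7 ± 14.7 to 331.2 ± 4.75 RPKM (log2 fold change -0.20, limma adjusted p = 0.0332). The summed alpha subunits stood at 0.280, 0.295 and 0.330 of the P4hb level in Control and at 0.173, 0.177 and 0.191 in siTet1/Tet2 libraries.

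**Figure D2:**
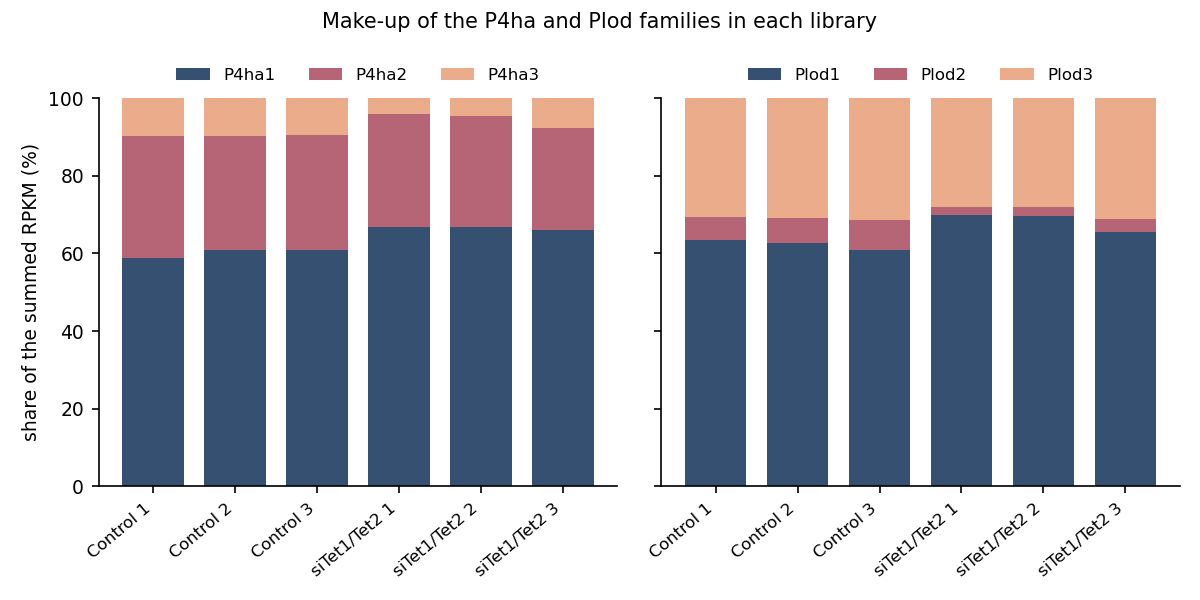
Share of each gene in the summed RPKM of its family, in percent, with 1 bar for each library, for the prolyl 4-hydroxylase alpha subunits on the left and the lysyl hydroxylases on the right. The share of P4ha3 goes from 9.44% to 9.84% in Control to 4.17% to 7.58% in siTet1/Tet2 libraries, and that of Plod2 from 5.84% to 7.68% to 2.18% to 3.31%.

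The lysyl hydroxylases differed most among themselves. Plod2, which hydroxylates lysine in the telopeptides where cross-links start, lies on chromosome 9 from 92542223 to 92608428. It was at 16.9, 18.0 and 21.5 RPKM in Control and at 4.52, 5.02 and 7.16 RPKM in siTet1/Tet2 libraries, and replicate 3 was the highest in both groups. The log2 fold change was -1.60 ± 0.15 (SE, limma adjusted p = 9.54e-05). Plod3, which also transfers sugars to hydroxylysine, on chromosome 5 from 136987019 to 136996648, was at 88.6, 84.4 and 88.1 RPKM in Control and at 58.1, 62.2 and 67.3 RPKM in siTet1/Tet2 libraries. It kept 71.8% of its Control level, and the groups did not overlap (log2 fold change -0.47 ± 0.07 SE, limma adjusted p = 0.000752). Plod1, which acts on lysine in the helix, on chromosome 4 from 147909753 to 147936767, was at 183.8, 171.0 and 170.4 RPKM in Control and at 145.0, 154.3 and 142.2 RPKM in siTet1/Tet2 libraries. It kept 84.1% of its Control level, the most of the 10 genes. Its log2 fold change was -0.25 ± 0.06 (SE, limma adjusted p = 0.0132), and 30.3% of all genes tested had a larger decrease. The call for Plod1 was lost when the libraries were scaled by their median ratio (log2 fold change -0.15, adjusted p = 0.111), without siTet1/Tet2 replicate 1 (adjusted p = 0.0552) and without siTet1/Tet2 replicate 3 (adjusted p = 0.0512), and over its 17 alternatives the adjusted p was between 0.00212 and 0.111.

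Within the family, Plod2 held 5.84%, 6.57% and 7.68% of the summed RPKM in Control and 2.18%, 2.27% and 3.31% in siTet1/Tet2 libraries. The share of Plod1 went the other way, from between 60.9% and 63.5% to between 65.6% and 69.9%, while the shares of Plod3 overlapped between the groups. The ratio of Plod2 to Plod1 was 0.0919, 0.105 and 0.126 in Control and 0.0312, 0.0325 and 0.0504 in siTet1/Tet2 libraries.

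P3h1 hydroxylates a single proline of the type I collagen helix in a complex with Crtap and with Ppib, the cyclophilin B gene. On chromosome 4 from 119232915 to 119248975, it was at 21.4, 21.6 and 22.0 RPKM in Control and at 6.28, 8.18 and 9.24 RPKM in siTet1/Tet2 libraries. The Control libraries were nearly alike and the siTet1/Tet2 libraries far below them, with a log2 fold change of -1.36 ± 0.12 (SE, limma adjusted p = 6.28e-05). Its partners changed less, Crtap from 88.7 ± 3.56 to 67.4 ± 0.588 RPKM (log2 fold change -0.39, limma adjusted p = 0.000732) and Ppib from 201.4 ± 24.4 to 166.4 ± 6.26 RPKM (log2 fold change -0.27, limma adjusted p = 0.0430). The ratio of P3h1 to Crtap was 0.230, 0.248 and 0.255 in Control and 0.0926, 0.123 and 0.137 in siTet1/Tet2 libraries. The ratio was lower in every siTet1/Tet2 library than in any Control library. Of the related prolyl 3-hydroxylase genes, P3h2 was under 0.8 RPKM in every library, P3h3 fell from 16.8 ± 1.54 to 10.2 ± 1.73 RPKM, and P3h4, whose product has no hydroxylase activity and binds P3h3 and Plod1, fell from 18.9 ± 2.00 to 5.76 ± 2.19 RPKM.

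Serpinh1, the gene of HSP47, is a chaperone that binds folded procollagen and is dedicated to collagen. On chromosome 7 from 99345376 to 99353239, it was at 204.4, 177.5 and 186.0 RPKM in Control and at 31.2, 43.5 and 56.8 RPKM in siTet1/Tet2 libraries. Replicate 1 was the lowest of the siTet1/Tet2 libraries, and the highest of them held 30.0% of the Control mean. The means were 189.3 ± 13.8 and 43.8 ± 12.8 RPKM (SD, n = 3), and the log2 fold change was -2.12 ± 0.18 (SE, limma adjusted p = 5.67e-05). Fkbp10 encodes the peptidyl-prolyl isomerase FKBP65, which is needed for telopeptide lysyl hydroxylation by the Plod2 product. On chromosome 11 from 100415697 to 100424824, it was at 49.2, 44.5 and 50.3 RPKM in Control and at 6.41, 9.16 and 12.5 RPKM in siTet1/Tet2 libraries. It had the largest decrease of the 10 genes (log2 fold change -2.28 ± 0.19 SE, limma adjusted p = 4.55e-05), and 0.829% of the genes tested had a larger one. Fkbp10 fell further than Plod2, since the ratio of Fkbp10 to Plod2 was between 2.34 and 2.91 in Control and between 1.42 and 1.83 in siTet1/Tet2 libraries, and the ratio of Serpinh1 to Fkbp10 was between 3.69 and 4.15 and between 4.54 and 4.87.

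Bmp1 is the C-proteinase that removes the carboxyl propeptide of fibrillar procollagen. On chromosome 14 from 70474558 to 70520234, it was at 42.3, 39.3 and 46.8 RPKM in Control and at 7.11, 8.81 and 11.1 RPKM in siTet1/Tet2 libraries. The siTet1/Tet2 libraries held 16.6%, 20.6% and 26.0% of the Control mean, and the log2 fold change was -2.14 ± 0.14 (SE, limma adjusted p = 1.62e-05). Pcolce, the enhancer protein of this proteinase, fell by a similar factor, from 48.3 ± 4.34 to 9.93 ± 4.04 RPKM (log2 fold change -2.23, limma adjusted p = 0.000121), and the ratio of Bmp1 to Pcolce overlapped between the groups, at 0.822 to 0.934 and 0.775 to 1.10. Tll1, a relative of Bmp1, fell from 1.02 ± 0.129 to 0.133 ± 0.0837 RPKM. Adamts2, which removes the amino propeptide, fell from 19.7 ± 2.26 to 5.54 ± 1.61 RPKM (log2 fold change -1.68, limma adjusted p = 0.000105).

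**Figure D3:**
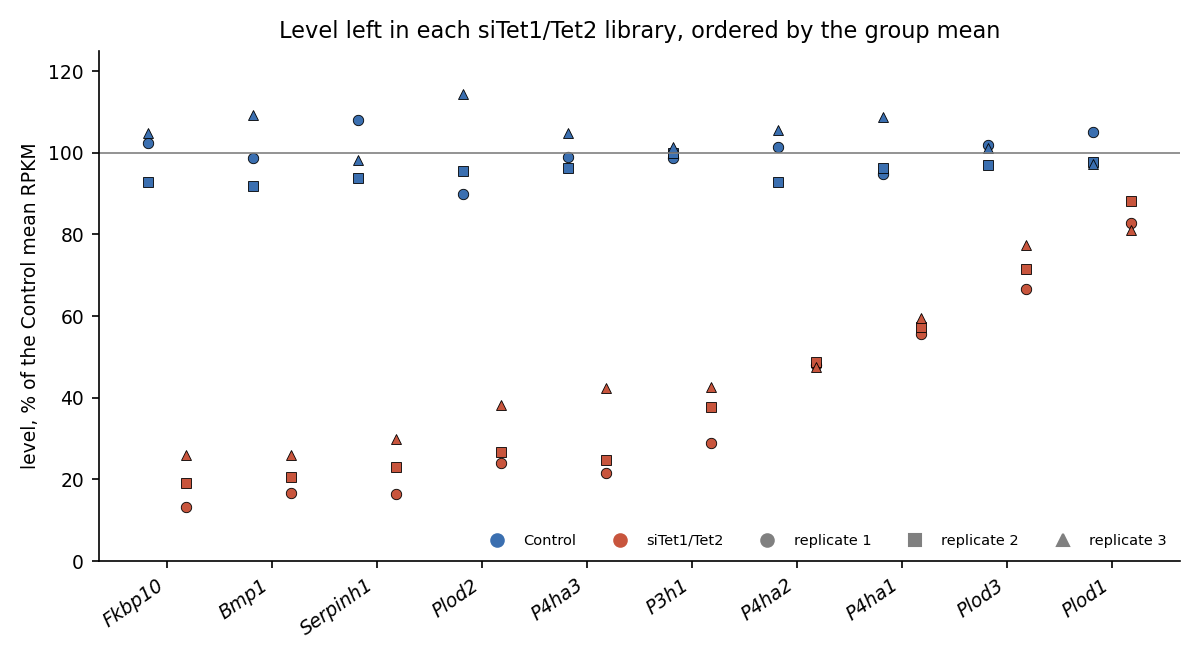
Level of each gene in each library as a percent of its Control mean RPKM, with Control in blue and siTet1/Tet2 in red, ordered from the gene with the least left to the gene with the most left. Fkbp10 kept 13.4% to 26.0% in the siTet1/Tet2 libraries and Plod1 kept 81.2% to 88.1%.

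The order of the levels differed between the groups. In Control libraries Serpinh1, at 189.3 RPKM, and Plod1, at 175.1 RPKM, led and their ranges overlapped, followed by Plod3, P4ha1, Fkbp10, Bmp1, P4ha2, P3h1, Plod2 and P4ha3. Fkbp10 and Bmp1, and P3h1 and Plod2, were neighbours whose ranges also overlapped, and the other neighbours did not overlap. In siTet1/Tet2 libraries Plod1, at 147.2 RPKM, stood alone at the top, Plod3 came next at 62.5 RPKM, and Serpinh1, at 43.8 RPKM, overlapped with P4ha1. P4ha2 followed, apart from its neighbours, and from Fkbp10 down through Bmp1, P3h1, Plod2 and P4ha3 each gene overlapped with the next. The 10 genes together summed to between 665.9 and 718.2 RPKM in Control and between 316.2 and 368.7 RPKM in siTet1/Tet2 libraries.

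The siTet1/Tet2 libraries differed among themselves in a way that most of the genes shared. Replicate 1 was the lowest in 8 of the 10 genes and replicate 3 the highest in 8 of the 10, the exceptions being P4ha2 and Plod1. Over all genes tested, replicate 1 was the lowest of its group in 40.9% and replicate 3 the highest in 49.2%. The stromal markers showed the same libraries at the ends, with replicate 1 the lowest in 11 and replicate 3 the highest in 12 of the 13 that were tested. Tet2 itself was at 0.358 RPKM in replicate 1, 0.238 RPKM in replicate 2 and 0.202 RPKM in replicate 3. The part of the stromal markers in this pattern was not tested. Among the Control libraries, replicate 3 was the highest in 7 of the 10 genes, against 44.0% of the genes tested.

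The wider pathway was described with a list of 20 partners and related enzymes. Of these, 17 were expressed highly enough to be tested, 16 of them lower and 1 higher, against 29.8% and 14.7% of all genes tested. The median of their log2 fold changes was -0.87. P4hb and Ppib, at -0.20 and -0.27, changed about as little as Plod1, at -0.25, and alternative fits are not given for the partners. Colgalt2, Tll2 and Adamts3 had means under 0.1 RPKM. The gene that rose was Tmem38b, an endoplasmic reticulum cation channel that is also a brittle bone gene, from 14.1 ± 0.247 to 18.1 ± 0.691 RPKM (log2 fold change 0.34, limma adjusted p = 0.00302). Fkbp14, another collagen-directed isomerase of the endoplasmic reticulum, fell from 9.30 ± 0.219 to 2.60 ± 0.620 RPKM, and Colgalt1, which adds galactose to hydroxylysine, fell from 105.6 ± 2.56 to 82.0 ± 2.53 RPKM. The isomerases Fkbp7 and Fkbp11 fell from 19.5 ± 1.34 to 6.74 ± 2.42 RPKM and from 12.1 ± 2.50 to 6.20 ± 1.68 RPKM. Pcolce2, a relative of Pcolce, fell from 5.34 ± 0.318 to 2.22 ± 0.440 RPKM, and Adamts14, a relative of Adamts2, from 2.65 ± 0.567 to 0.985 ± 0.249 RPKM. Of 10 general chaperones of the endoplasmic reticulum, 4 were lower, namely Hspa5, Hsp90b1, Pdia4 and Pdia6, and 0 were higher, against 29.8% and 14.7% of all genes tested. Their median log2 fold change was -0.16, against -0.09 for all genes. In a list of 13 hypoxia-response genes, compared because P4ha1 and Plod2 are known to respond to hypoxia, 4 fell, 2 rose and 7 were not called, and the median log2 fold change was -0.13. These counts are near the shares of all genes tested, 29.8% lower and 14.7% higher. Adm and Vegfa were among those that fell, and Ndrg1 and Ankrd37 were those that rose.

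**Figure D4:**
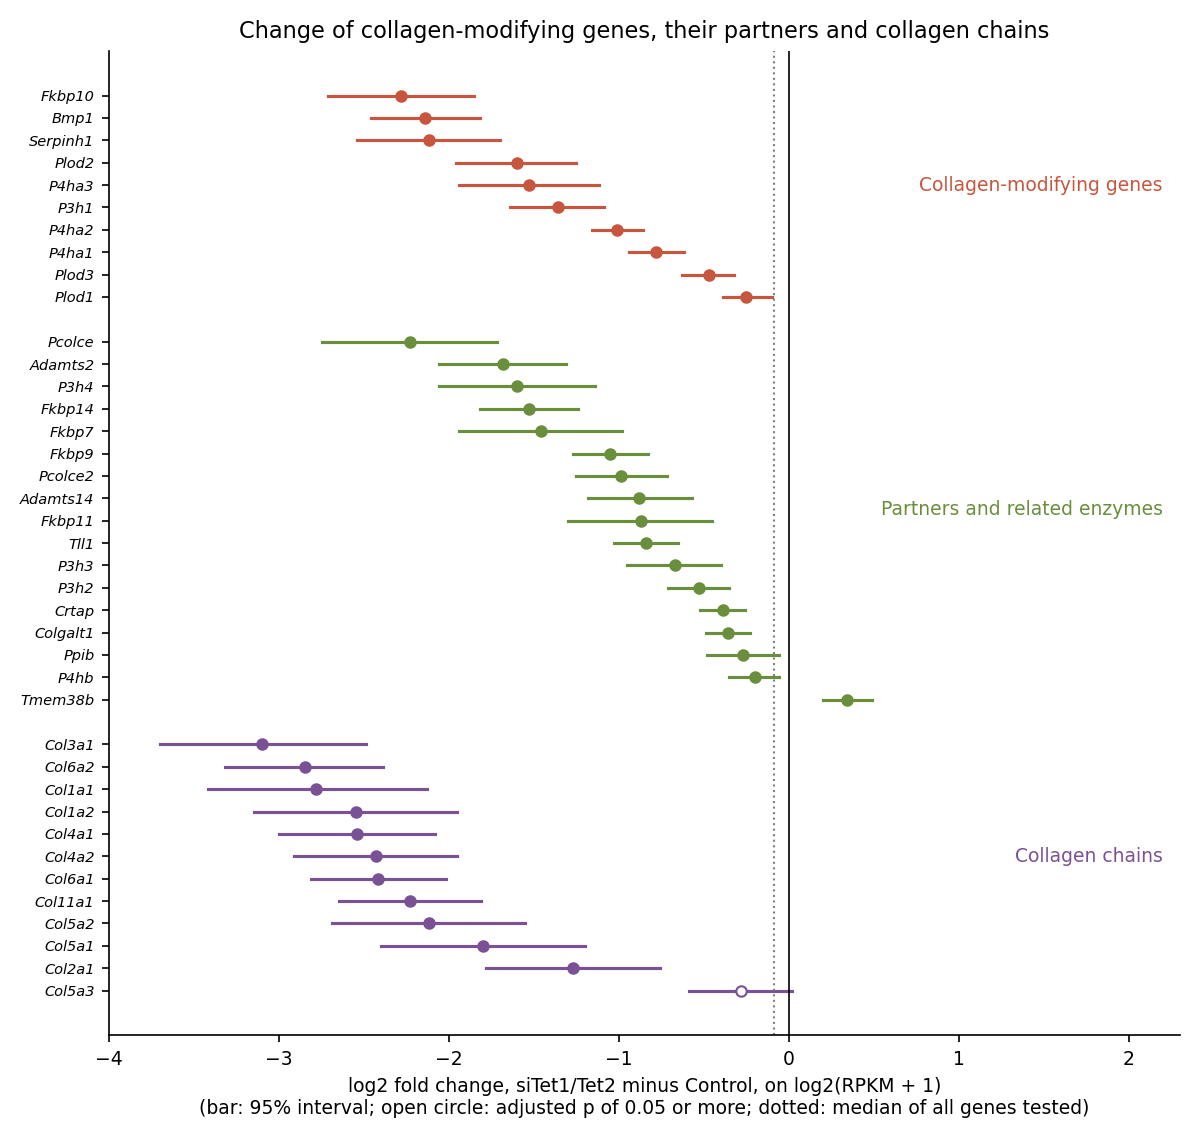
Log2 fold change on the log2(RPKM + 1) scale, siTet1/Tet2 minus Control, with 95% intervals, for the 10 collagen-modifying genes, the tested partners and related enzymes, and the tested collagen chains. Filled circles have an adjusted p under 0.05, the dotted line marks the median of all genes tested at -0.09, and Tmem38b is the only filled circle on the right of 0.

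The collagen chains that these enzymes act on fell further than most of the enzymes. Of 12 chains tested, 11 were lower and 0 higher, against 29.8% and 14.7% of all genes tested, and their median log2 fold change was -2.42. Col5a3 was the exception, with 2.34 to 3.14 RPKM in Control and 1.62 to 2.46 RPKM in siTet1/Tet2 libraries (limma adjusted p = 0.119). Col1a1 was at 416.3, 394.2 and 654.7 RPKM in Control and at 48.4, 64.2 and 103.7 RPKM in siTet1/Tet2 libraries, so Control replicate 3 stood above the other Control libraries. The summed RPKM of Col1a1, Col1a2, Col3a1, Col5a1 and Col5a2, the main fibrillar chains, was 6.02-fold lower in siTet1/Tet2 libraries, so a gene that fell clearly less than this stands higher relative to it. A further comparison, chosen after the values had been seen, set each gene against this sum within the same library. In 8 of the 10 genes the ratio was higher in every siTet1/Tet2 than in every Control library, and for Fkbp10 and Bmp1 the ratios overlapped. Of all genes tested, the chains left out, 93.8% had a higher ratio in the same way, so the 8 genes do not stand apart from other genes in this measure. Per 100 RPKM of these chains, Fkbp10 was at 4.66, 4.44 and 3.24 RPKM in Control and at 4.85, 5.04 and 4.36 RPKM in siTet1/Tet2 libraries. Plod1, by contrast, was at 17.4, 17.0 and 11.0 RPKM per 100 RPKM of the chains in Control and at 109.7, 84.8 and 49.6 RPKM in siTet1/Tet2 libraries.

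**Figure D5:**
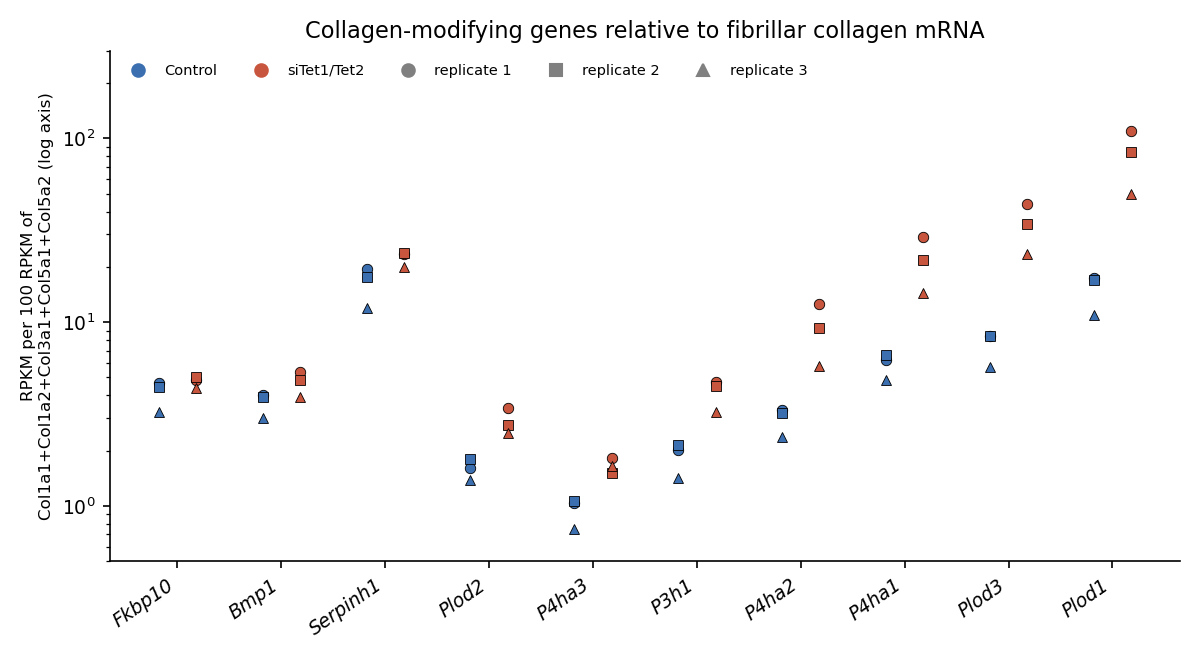
RPKM of each gene per 100 RPKM of Col1a1, Col1a2, Col3a1, Col5a1 and Col5a2 in the same library, on a log axis, with the genes in the order of the plot of remaining levels. Fkbp10 and Bmp1 overlap between the groups, while Plod1 goes from 11.0 to 17.4 in Control to 49.6 to 109.7 in siTet1/Tet2 libraries.

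The genes outside the set whose pattern over the 6 libraries was most like the mean of the 10 genes were Rcn1, Lrrc32, Fkbp9, Fam20a and Bcat1, with Pearson correlations of 0.9999, 0.9997, 0.9997, 0.9997 and 0.9996 among the 11057 genes that averaged 1 RPKM or more. The points are 6 libraries in 2 groups that differ in all these genes, and 488 genes, 4.41% of the total, reached 0.99. Rcn1, a calcium-binding protein of the endoplasmic reticulum, went from 41.5 ± 3.21 to 10.4 ± 2.40 RPKM, and Fkbp9, of the same isomerase family as Fkbp10, from 55.4 ± 2.17 to 26.4 ± 3.62 RPKM. Among the 10 genes, the correlation of each with the mean of the others was between 0.894 and 0.999, lowest in Plod1.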

How the data were processed

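RNA of 6 BMMSC libraries was sequenced with paired-end reads. After adaptor trimming, the authors used DNASTAR Lasergene to align them to GRCm38 and to quantify genes, and deposited the result as RPKM (named FPKM in the methods), not log-transformed, in 36915 rows. The annotation, strand setting and treatment of multiply mapping reads are not given in the sources used here. A deposited p-value column holds the authors' own comparison and was left out.

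Of repeated rows for 37 symbols, the most abundant was kept. Values were taken as log2(RPKM + 1), which understates changes of low genes. The 13266 genes that averaged 0.1 RPKM or more were compared two-sided with limma 3.58.1 (R 4.3.3, moderated with a trend) and adjusted by Benjamini-Hochberg over all of them. The script was tested on simulated data. Depth was estimated with Python 3.11.15 from low values of single-transcript genes of GENCODE M21, which also gave the gene positions. Between 53.9% and 57.0% of these values lay within 0.1 of whole reads, so no count test was made. The depth kept was the one with the highest such share, whereas the 20% given by chance holds for a depth fixed beforehand.

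Both groups are numbered 1 to 3 in the labels. Deviations from the group mean correlated over genes at 0.149, 0.117 and 0.462 for equal numbers. As each exceeded 0.1, a paired fit was added. This pairing comes from the data alone, and the crossed pairs of replicates 1 and 2 were higher than the equal-numbered ones, at 0.332 for Control replicate 1 with siTet1/Tet2 replicate 2 and 0.205 for the reverse.

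Named genes were the 10 examined, Tet1, Tet2 and Tet3, the partners that were called or bind one of the 10, the main fibrillar chains and the 5 genes of most similar pattern. The genes and lists were chosen with earlier results of these data known. Col5a3, the 3 untested partners, the genes named from the chaperone, hypoxia and marker lists, and the ratios between genes were chosen after their values were seen. Alternatives were pseudocounts of 0.1 and 0.01, other filters, 3 other scalings, 2 other variance models, removal of each library, the replicate block, summed duplicate rows and 2 call rules based on fold change.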

Additional observations from a re-analysis of the deposited data

How the results depend on the processing

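All 10 genes kept their direction under the 17 alternative fits. Plod1 was the exception in its call, which was lost under the 3 settings named in the report, so that 9 genes were called there. The number of lower genes was 9 to 10 when any single library was removed and 7 with either threshold on the size of the change, and 0 genes were higher under any fit. The median log2 fold change of -1.45 stayed between -1.62 and -1.29, and between -1.61 and -1.30 with a library removed. With the replicate block it was -1.45 and 10 genes were lower, so the pairing changed no call. P4ha3 had the widest range of log2 fold changes, from -1.81 to -1.35, with an adjusted p of at most 0.0149. The median of all genes tested was -0.09 in the deposited scaling and 0.06 after quantile normalization, where 2627 genes were lower and 3607 higher against 3952 and 1953. With median ratio scaling 3108 were lower and 2697 higher. Changes near that shift, such as that of Plod1, are relative to the scaling.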
